A study of Arabidopsis thaliana with 64 samples.

Results

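The genes described here are the cytochrome P450 and UDP-glycosyltransferase genes that a cDNA-type microarray of Arabidopsis names by their family symbol. A probe was a member where its gene symbol was CYP or UGT followed by the family number, in the platform's gene table or after updating through the gene identifier. The rule used no measured value. It found 17 of the 13824 probes on the array, which stand for 15 of the 5164 named genes. The RefSeq gene table (TAIR10.1) holds 283 genes with such a symbol, 225 of them CYP and 58 UGT, so the members are a small part of the genes so named. The array also has 7483 probes with no gene name, and genes of these families under other symbols are not members. The 4 P450 genes are CYP71B6, CYP71B19, CYP71B20 and CYP71B28, with 1 probe each. The 11 UGT genes are UGT71D1, UGT72E2, UGT73C6, UGT74D1, UGT76B1, UGT76D1, UGT78D1, UGT85A2, UGT85A4, UGT87A2 and UGT88A1, with 3 probes for UGT71D1 and 1 for each of the others.

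Cytochrome P450 enzymes are haem proteins that use electrons from NADPH to insert oxygen into small molecules, and plants use them to build hormones, lignin, pigments and defence compounds. UDP-glycosyltransferases move a sugar from a UDP-sugar onto such molecules, which changes their activity, solubility or storage. Both families are among the largest of plant genomes, and many members sit in tandem arrays of close copies. In the TAIR10.1 gene order CYP71B19 lies directly next to CYP71B20 inside a cluster of CYP71B genes, CYP71B28 lies between CYP71B2 and CYP71B29, and UGT85A2 lies between UGT85A7 and UGT85A5. UGT73C6 lies next to DOGT1. Probe sequences were not analysed here, so signal from such close copies cannot be told apart from the named gene.

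The study set RNA of lines named for flowering loci against RNA of a comparator on arrays with 2 channels. It has 64 arrays in 32 groups of 2, and each group has an array with the dyes swapped and an array without the swap. CO, FT, GI, FD, FE, FHA, FWA, FCA, FPA, FVE, FY, GAI and SOC1 were set against WT, the wild type, at 12 days, and FLC20 was set against C24, also called wild type, at 9 days. Each of these 14 lines has 4 arrays, from plants given 8 h or 16 h of light. The double mutants FCAVRN1 and FCAVRN2 fill 4 groups at 12 days, namely FCAVRN1 against FCA, FCAVRN1 against WT, FCAVRN2 against WT under 8 h and FCAVRN2 against FCA under 16 h. The sources used here give neither the alleles, the tissue nor what limits each line as a model, and the accession of the wild type appears in 1 FHA label only, as Ler. Labels conflict on day length for 3 groups. The 16 h arrays of FVE were placed by their titles, and no day length was used for FCAVRN1.

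Each array gave between 13792 and 13824 ratios with a median of 1, and the members had no missing value. Ratios beyond 2-fold made up 0.0868% to 5.14% of an array. The arrays of a group hardly correlated over probes at the median (r 0.0286), with a range from -0.509 in GI under 8 h to 0.584 in GI under 16 h. Values are given on the log2 scale of the deposited ratio, and a positive value is read as higher in the line. That direction is likely, because the descriptions name the line first, but the dyes are not given. If it were the other way, each rise below would be a fall. A probe is said to have risen, fallen or been called where limma's p, adjusted by Benjamini-Hochberg over all 13824 probes of a comparison, lay under 0.05. Errors after ± are limma's standard errors unless named otherwise. Whether arrays shared wild type RNA is not given, and if they did, the p-values of the mean over the 13 lines are too small. In RNA from whole samples, fewer cells of a type and less RNA per cell cannot be told apart. Of the 36 marker genes listed for root, flower, seed, defence and photosynthesis, 4 were measured, and none of the floral or seed markers was among them.

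Few of the member probes passed the test in a single line. Over the 14 lines, each as the mean of both day lengths, the 238 estimates for members lay between -0.30 and 0.49, and 10 of them were beyond 0.25 in either direction. A single member passed the test in a single line, CYP71B6 in FD, where it rose. This is 0.420% of the member tests, beside 1.17% of the tests over all probes. At an unadjusted p under 0.05 the members gave 24 tests, or 10.1%, beside 10.3% over all probes, a share near that of the array. Standard errors of a member in a line ran from 0.0576 to 0.193, and the widest 95% interval reached 0.79 from 0. Moderate changes in a single line were thus within the error for the noisier members. Small ones could be missed more widely. In data simulated with independent noise, a change of 0.2 in FD was called for 5.80% of the changed probes, and a change of 0.5 for 80.9%. The simulation changed 69 probes by 0.2, 68 by 0.5 and 63 by 1, while FD called 809 probes. These recovery shares need not hold for the real arrays.

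**Figure D1:**
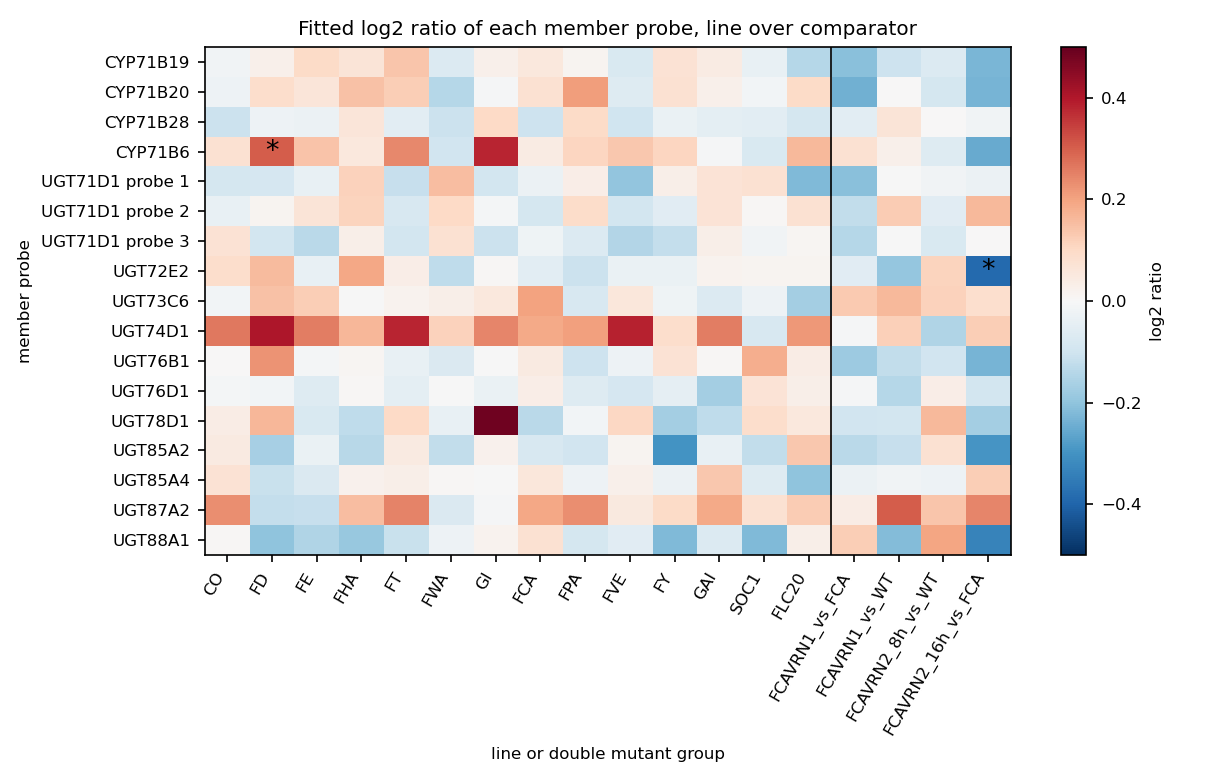
Fitted log2 ratio of the 17 member probes (rows) in the 14 single lines and 4 double mutant groups (columns), red for higher and blue for lower than the comparator, with a star where the adjusted p lay under 0.05. The 2 stars are CYP71B6 in FD and UGT72E2 in FCAVRN2 against FCA, and UGT74D1 is positive in 13 of 14 lines.

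CYP71B6 oxidises indole-3-acetonitrile, a breakdown product of tryptophan metabolism that also feeds the defence compound camalexin. In FD, a line named for a partner of the florigen FT, its log2 ratio was 0.26 and 0.28 on the 8 h arrays and 0.25 and 0.43 on the 16 h arrays. All 4 arrays were above 0 and close to each other, except that the second 16 h array was higher. The fitted rise was 0.30 ± 0.09, or 1.23-fold (limma, adjusted p = 0.0486). FD called 5.85% of all probes, with 2.79% higher, and the 1 member called is 5.88% of the 17. The call was narrow. It was lost without any 1 of the 4 arrays, where the adjusted p ran from 0.140 to 0.238. Against the mean of the other lines FD was higher by 0.21 ± 0.10 (adjusted p = 0.395), in a comparison that called 0.644% of all probes, so the rise was not shown to be particular to FD.

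CYP71B6 had its highest estimate in GI, the line named for GIGANTEA, a clock-linked promoter of flowering. The log2 ratio of CYP71B6 there was 0.34 and 0.26 under 8 h and 0.67 and 0.27 under 16 h, above 0 on all 4 arrays. Over all probes, however, the 8 h arrays of GI ran against each other (r = -0.509). Both 16 h arrays of GI have 1 biological replicate number between them, so their mean was used, which widened the error, and the estimate of 0.38 ± 0.12 was not called (adjusted p = 0.109). GI called 1.17% of all probes and none of the members, and 2 members had an unadjusted p under 0.05, as had 11.5% of all probes. The other was UGT78D1, which adds rhamnose to flavonols. Its log2 ratio in GI was 0.24 and 0.87 under 8 h and 0.59 and 0.24 under 16 h, the highest member estimate of any line at 0.49 ± 0.15 (adjusted p = 0.123). Without the first 8 h array of GI, UGT78D1 was called, and without the unswapped 16 h array both CYP71B6 and UGT78D1 were.

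**Figure D2:**
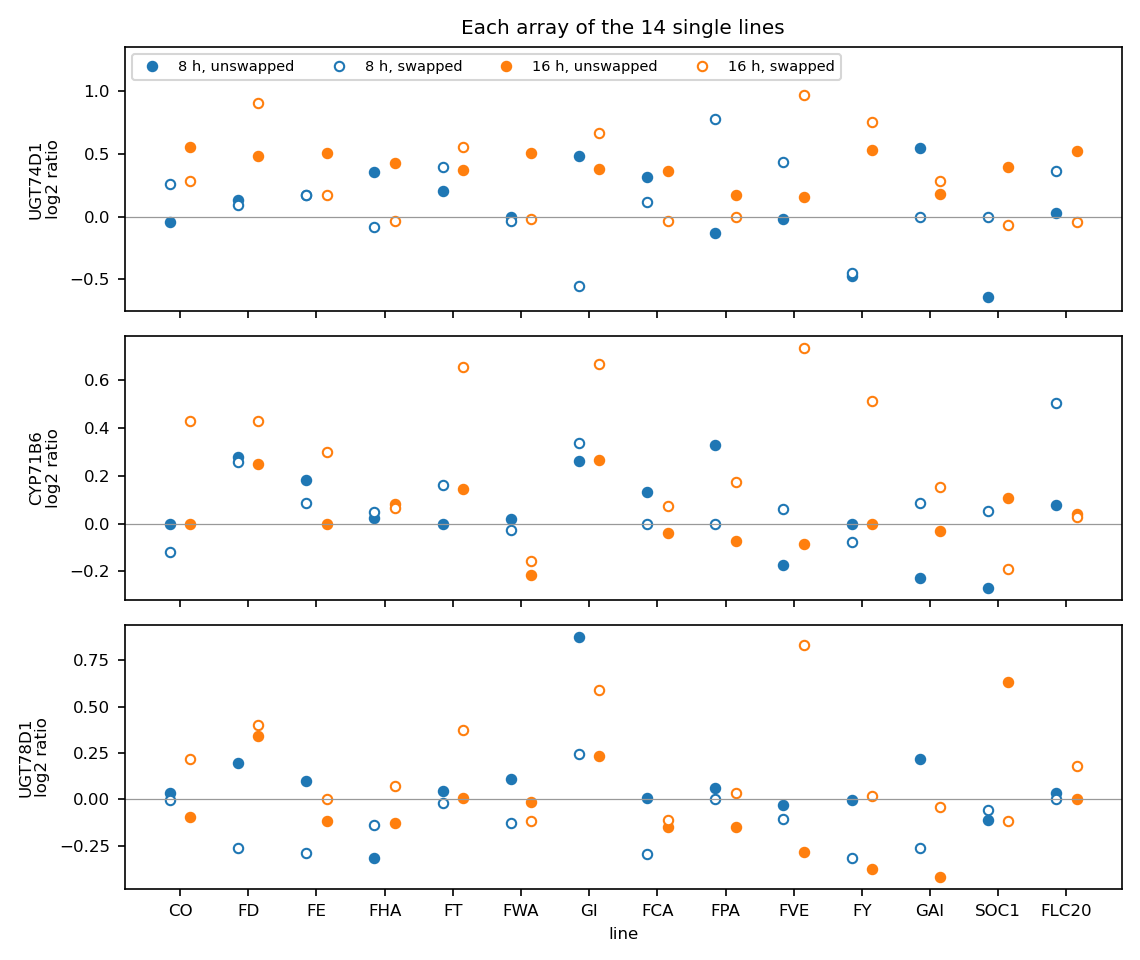
Log2 ratio of UGT74D1, CYP71B6 and UGT78D1 on every array of the 14 single lines, blue for 8 h and orange for 16 h of light, filled for unswapped and open for swapped dyes. CYP71B6 and UGT78D1 are above 0 on all 4 arrays of GI, and UGT74D1 lies below 0 on both 8 h arrays of FY and above 0 on both 16 h arrays.

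In the 12 lines other than FD and GI no member was called. The shares of all probes called there were 0% in CO, 0.0723% in FCA and in FPA, 0.253% in FE, 0.0362% in FHA, 6.09% in FLC20, 0.00723% in FT, 0.0145% in FVE, 0.543% in FWA, 1.82% in FY, 0.383% in GAI and 0.0289% in SOC1. FLC20 called 842 probes and none of the members, although 3 members and 21.4% of all probes had an unadjusted p under 0.05. UGT85A4 was the nearest, with log2 ratios of -0.39 and -0.30 under 8 h and -0.13 and 0.02 under 16 h. Its estimate in FLC20 was -0.20 ± 0.07 (limma, adjusted p = 0.0801). CYP71B20 was 0.21 ± 0.08 in FPA (adjusted p = 0.266), with 0.60 on 1 of the 4 arrays. It was called there without the other 8 h array.

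The members tied to salicylate and auxin are UGT76B1, which glucosylates isoleucic and salicylic acid, UGT76D1, which acts on dihydroxybenzoic acids, and UGT74D1, which glucosylates auxins. UGT76B1 in FD was 0.00 and -0.23 on the 8 h arrays and 0.52 and 0.62 on the 16 h arrays. The difference of 16 h minus 8 h was 0.69 ± 0.15 (limma, adjusted p = 0.146), and the mean of both day lengths was 0.23 ± 0.08 (adjusted p = 0.0728). UGT76D1 was the steadiest member, with an SD of 0.0786 over the 28 group means of the single lines. Its lowest line was GAI, named for a repressor of gibberellin responses, at -0.17 ± 0.06 (adjusted p = 0.165), with -0.17 and -0.08 under 8 h and -0.14 and -0.29 under 16 h.

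UGT88A1 had negative estimates of similar size in 4 lines, none of them called. They were -0.20 ± 0.08 in FD, -0.19 ± 0.08 in FHA, -0.22 ± 0.08 in FY and -0.22 ± 0.08 in SOC1, with adjusted p between 0.118 and 1. In SOC1 its log2 ratio was -0.10 and 0.01 under 8 h and -0.58 and -0.22 under 16 h. UGT85A2 was lowest in FY at -0.30 ± 0.10 (limma, adjusted p = 0.122), with -0.21 and -0.48 under 8 h and -0.42 and -0.08 under 16 h, below 0 on all 4 arrays.

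UGT72E2, which glucosylates the monolignol alcohols of lignin, and UGT73C6, which glucosylates flavonols and brassinosteroids, had no call in any line. UGT72E2 ran from -0.13 in FWA to 0.19 in FHA, and UGT73C6 from -0.17 in FLC20 to 0.20 in FCA. In FE, UGT72E2 was 0.16 and 0.29 under 8 h and -0.30 and -0.29 under 16 h. The difference of -0.52 ± 0.16 was not called (limma, adjusted p = 1.00), and the day length difference of FE called none of the 13824 probes.

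The 3 probes of UGT71D1 agreed in part. They shared a sign in 7 of 14 lines and on 24 of the 44 arrays where none of them was exactly 0. Among the 13 lines set against wild type all 3 had their lowest line in FVE, at -0.20, -0.09 and -0.15. The range of their log2 ratios within an array had a median of 0.186 and reached 0.772. In FLC20 the first probe in the order of the probe identifiers was -0.22 ± 0.09, while the others were 0.08 ± 0.07 and 0.01 ± 0.10, and none was called. The probes of UGT71D1 are therefore given separately. For the tandem neighbours CYP71B19 and CYP71B20 the fitted signs matched in 12 of 14 lines, and the signs on 31 of the 45 arrays where neither was exactly 0.

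**Figure D3:**
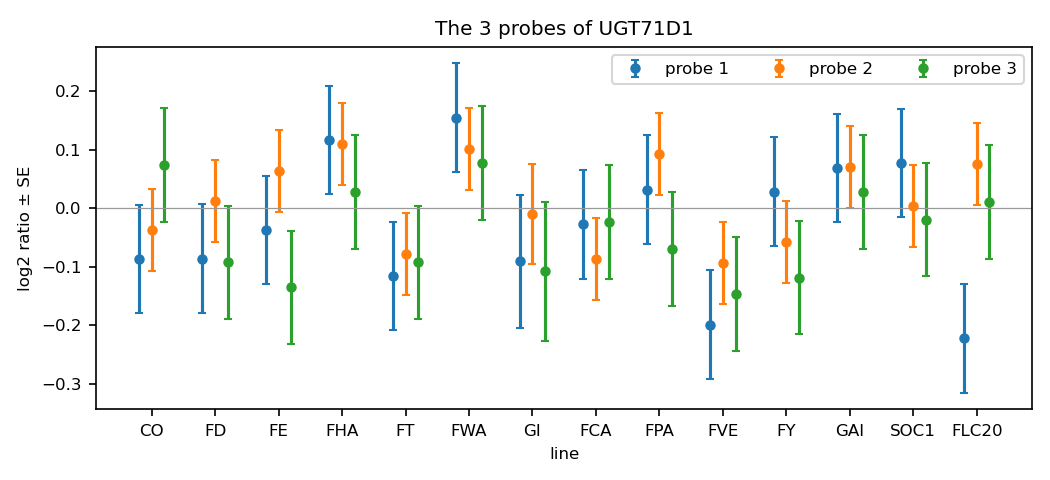
Fitted log2 ratio of the 3 UGT71D1 probes in each of the 14 single lines, with limma's standard error as bars (4 arrays a line, those of GI at 16 h averaged). The probes share a sign in 7 of 14 lines, and in FLC20 probe 1 lies at -0.22 while the others lie above 0.

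The second question is what the 13 lines set against wild type have in common. The mean over these lines, from 52 arrays, called 25.5% of all probes, and 5 of the 17 member probes, or 29.4%. That share is near the background and is no result about the family. UGT74D1, CYP71B6 and UGT87A2 rose, beside 13.6% of all probes, and UGT88A1 and UGT85A2 fell, beside 11.8%. The shifts were small, between 0.07 and 0.22 in size. The members not called had 95% intervals within -0.10 and 0.09, so a larger mean shift of those 12 probes lies outside their intervals.

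**Figure D4:**
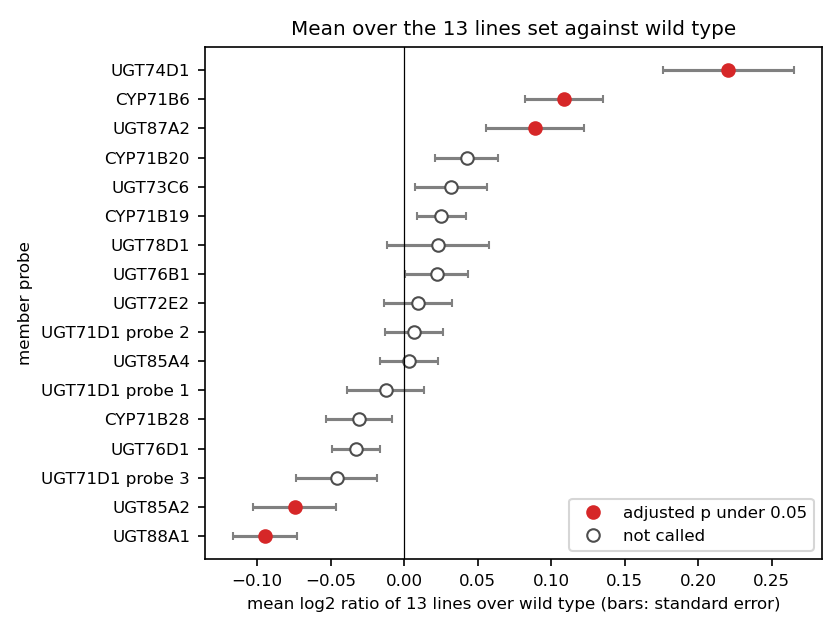
Mean log2 ratio of each member probe over the 13 lines set against wild type, with limma's standard error as bars, filled red where the adjusted p lay under 0.05. UGT74D1 stands highest at 0.22 and UGT88A1 lowest at -0.09.

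UGT74D1, the auxin glucosyltransferase, had the highest mean, 0.22 ± 0.04 (limma, adjusted p = 0.000333). It was above 0 on 35 of 52 arrays and below on 13, from -0.64 through a median of 0.19 to 0.97. Its line estimates were 0.40 in FD, 0.38 in FVE, 0.38 in FT, 0.26 in CO, 0.25 in FE, 0.25 in GAI and 0.24 in GI. They were 0.20 in FPA, 0.19 in FCA, 0.17 in FHA, 0.11 in FWA, 0.09 in FY and -0.08 in SOC1. None of these was called alone, with a standard error of 0.158 in the 12 lines other than GI, so neighbours in this order did not differ beyond their error. FLC20, which was not part of the mean and had another comparator and age, was at 0.22 ± 0.16 (adjusted p = 0.439).

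The rise of UGT74D1 was found in both dye orientations, with a mean of 0.23 on the 26 unswapped arrays and 0.21 on the 26 swapped ones. It differed more by day length, with 0.08 under 8 h and 0.36 under 16 h. On the unswapped 16 h arrays all 13 values were above 0, from 0.16 to 0.56. On the swapped 16 h arrays 8 of 13 were, and under 8 h 7 of 13 in either orientation. The mean difference of 16 h minus 8 h was 0.29 ± 0.09 and missed the threshold (limma, adjusted p = 0.0518), with 16 h above 8 h in 10 of 13 lines. The largest gap was in FY, where both 8 h arrays were low, at -0.45 and -0.47, and both 16 h arrays were high, at 0.75 and 0.53. That 2.15-fold difference, with a 95% interval from 0.46 to 1.75 on the log2 scale, was not called either (adjusted p = 0.160). UGT74D1 also had the largest SD over the 28 group means of any member, 0.249, beside a median of 0.136 over all probes.

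CYP71B6 rose by 0.11 ± 0.03 in the mean of the 13 lines (limma, adjusted p = 0.00236), above 0 on 31 of 52 arrays and in 10 of 13 lines. CYP71B6 averaged 0.04 on unswapped and 0.18 on swapped arrays, and its dye term was not called (limma, adjusted p = 0.0801). The mean of CYP71B6 was 0.30 on the 13 swapped 16 h arrays, and 0.07, 0.04 and 0.03 in the other sets of 13. The swapped 16 h arrays held the values of 0.73 in FVE, 0.67 in GI, 0.66 in FT and 0.51 in FY, while the unswapped partners of these were -0.08, 0.27, 0.14 and 0.00. The part of the dye in this rise was not tested beyond the dye term of the fit, which does not vary with day length. That term was called for 3373 of the 13824 probes and for 2 member probes. These were UGT85A4 (limma, adjusted p = 0.0210) and the second UGT71D1 probe in the order of the identifiers (adjusted p = 0.0232).

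UGT88A1 fell by 0.09 ± 0.02 (limma, adjusted p = 0.00123), below 0 on 33 of 52 arrays and above on 13. Its means were -0.10 on unswapped and -0.09 on swapped arrays, and -0.04 under 8 h and -0.15 under 16 h. UGT85A2 fell by 0.07 ± 0.03 (adjusted p = 0.0495) and was below 0 on 32 of 52 arrays. UGT87A2, whose loss delays flowering in Arabidopsis through FLC, rose by 0.09 ± 0.03 (adjusted p = 0.0452), above 0 on 33 of 52 arrays. For UGT87A2 the unswapped arrays averaged 0.15 and the swapped ones 0.02, with unswapped 16 h values of 0.70 in FHA, 0.66 in FT, 0.58 in FCA and 0.52 in CO beside swapped partners of 0.06, 0.04, 0.06 and 0.11. The dye term of UGT87A2 was not called (limma, adjusted p = 0.103). Leaving out single arrays or lines often ended the calls of UGT85A2 and UGT87A2 in the mean of the 13 lines. UGT87A2 was called in 23 of 52 fits without an array and UGT85A2 in 17 of 52, while UGT74D1, CYP71B6 and UGT88A1 were called in all 52.

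**Figure D5:**
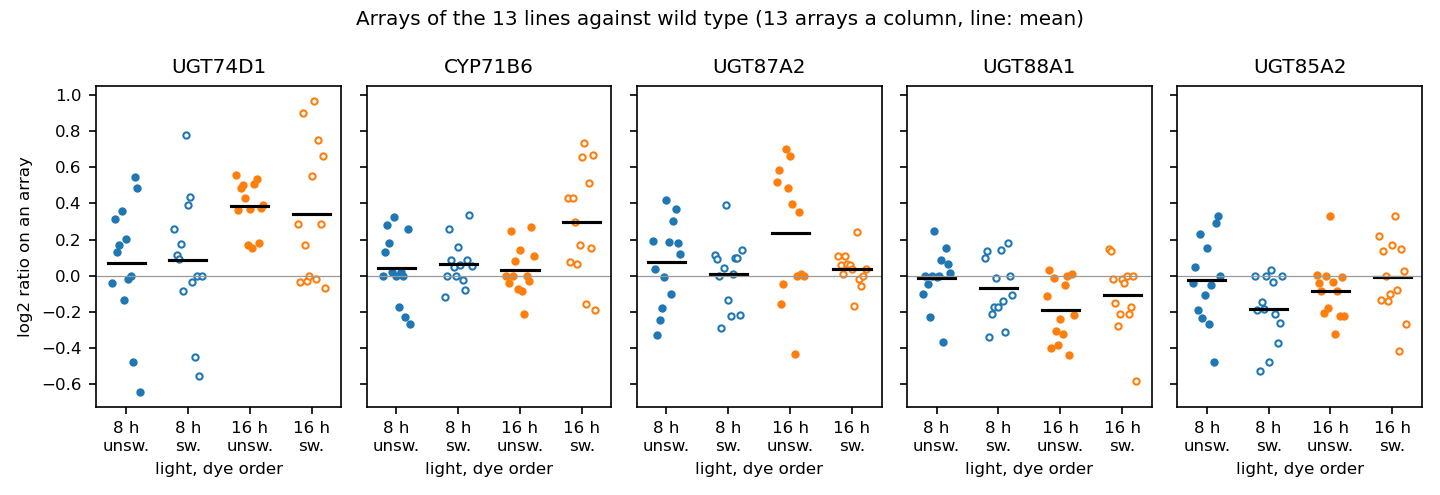
Log2 ratio of the 5 called members on the 52 arrays of the 13 lines, split into 8 h (blue) and 16 h (orange) and into unswapped (filled) and swapped (open) arrays, with 13 arrays and their mean as a line in each column. UGT74D1 is high under 16 h in both orientations, CYP71B6 is high on swapped 16 h arrays and UGT87A2 on unswapped 16 h arrays.

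An array of FVE under 16 h with swapped dyes held the highest or lowest of the 52 values for 6 of the 17 member probes. The share of all probes with an extreme there was not counted. Over all probes that array had 1.69% of ratios beyond 2-fold, beside a median of 0.286% over the arrays. The r of that array with the other array of its group was -0.200. This FVE array had the highest value of UGT74D1 at 0.97 and of CYP71B6 at 0.73, and the lowest of CYP71B28 at -0.50. The other 3 were the probes of UGT71D1, all at their lowest there, at -0.51, -0.35 and -0.69. Without this array UGT74D1 rose by 0.20 ± 0.04 and CYP71B6 by 0.09 ± 0.02, and the same count of 5 members was called in the mean of the 13 lines.

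Markers of other tissues and states moved in the same mean. All 3 probes of PRK, a Calvin cycle kinase and the only measured gene of 10 photosynthesis markers, fell, by 0.20, 0.24 and 0.19. Of 2 probes of PRX72 (AT5G66390), listed as a root marker, 1 fell, by 0.09, while the other was -0.06 and the root hair gene EXPA7 was 0.01, neither of them called. The defence marker PDF1.2 was 0.11 on 1 probe and -0.0020 on the other. The part of these differences in the shifts of the members was not tested.

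The third question is day length. Over the 14 lines, 16 h minus 8 h called 0 of 238 member tests with limma, beside 0.0109% of the tests over all probes, and at an unadjusted p under 0.05 there were 13, or 5.46%, beside 6.02%. In 11 of these lines no probe of the array was called, and in the others the shares were 0.00723% in FLC20, 0.13% in GAI and 0.0145% in GI. In GAI the difference of UGT88A1 was -0.47 ± 0.15 (adjusted p = 0.249), with 0.15 and 0.18 under 8 h and -0.17 and -0.44 under 16 h. In FPA it was -0.41 ± 0.15 (adjusted p = 0.498). In FCA the difference of UGT73C6 was -0.44 ± 0.17 (adjusted p = 1.00), with 0.69 on 1 of the 8 h arrays.

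In the mean day length difference of the 13 lines limma called 5.44% of all probes and none of the 17 member probes, of which 6, beside 21.1% of all probes, had an unadjusted p under 0.05. Beside UGT74D1, the nearest were CYP71B28 at -0.14 ± 0.04 (adjusted p = 0.0603), lower under 16 h in 10 of 13 lines, and CYP71B19 at 0.10 ± 0.03 (adjusted p = 0.0670), higher in 12 of 13. UGT72E2 was -0.12 ± 0.05, UGT88A1 -0.11 ± 0.04 and CYP71B6 0.11 ± 0.05, none of them called. With single arrays left out, 31 of 52 fits called no member, 14 called 1 and 7 called 2, and UGT74D1 was among them in 15 fits. PRK fell under 16 h relative to 8 h in the same mean, by 0.47, 0.43 and 0.40 on its 3 probes, and PDF1.2 by 1.11 and 1.02 on its 2. Their part in the members' values was not tested.

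The autonomous lines FCA, FPA, FVE and FY, named for loci that promote flowering in both day lengths, were set against the photoperiod lines FT, CO, GI, FD, FE, FHA and FWA. With limma no member was called, and 0 had an unadjusted p under 0.05, beside 0.311% and 9.48% of all probes. The member differences lay between -0.13 for UGT72E2 and 0.10 for UGT87A2.

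The last comparison is of the FCA line with the lines that add VRN1 or VRN2, names of vernalization genes. In FCAVRN2 against FCA under 16 h, 7.85% of all probes were called, with 4.59% lower, and 1 of the 17 member probes. UGT72E2 fell by 0.39 ± 0.12 (limma, adjusted p = 0.0347). The 2 arrays were far apart, at -0.69 on the swapped and -0.08 on the unswapped array. Over all probes, 2.53% of ratios were beyond 2-fold on the swapped and 0.536% on the unswapped array. The call of UGT72E2 rests on the swapped array. Without it the value was -0.08 (adjusted p = 1.00), and without the unswapped array -0.70 (adjusted p = 0.00282). UGT88A1 was -0.32 and -0.34 on the 2 arrays, close together, at -0.33 ± 0.11 (adjusted p = 0.0518). CYP71B19 was -0.24 and -0.22 there (-0.23 ± 0.08, adjusted p = 0.0817) and CYP71B20 -0.18 and -0.29 (-0.23 ± 0.11, adjusted p = 0.172). At an unadjusted p under 0.05 there were 6 members, all lower, or 35.3%, beside 23.7% of all probes in either direction and 13.3% that were lower. PRK had values of -0.75, -0.88 and -0.74 on its 3 probes in this group, of which 1 was called, and its part in the members' values was not tested.

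In FCAVRN1 against FCA none of the 13824 probes was called. CYP71B19 was -0.33 and -0.10 there and CYP71B20 -0.26 and -0.22, with estimates of -0.21 and -0.24. FCAVRN1 against FCA and FCAVRN2 against FCA share the FCA comparator, and whether they share its RNA is not given. In FCAVRN1 against WT 0.0145% of all probes were called and in FCAVRN2 against WT under 8 h 0.00723%, none of them members, and no member there had an unadjusted p under 0.05, beside 7% and 4.62% of all probes.

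The genes that work beside the members were taken from 6 pathway lists of 245 genes, of which 14 were measured, 5 of them partners that are not members. In the glucosinolate and camalexin list 3 of 47 genes were measured, and in the mean of the 13 lines 2 rose, CYP71B6 and GSTU20, and 1 fell, BCAT4. GSTU20, a glutathione transferase linked to glucosinolate formation, rose by 0.20 ± 0.03 (limma, adjusted p = 7.53e-06), and BCAT4, an aminotransferase that starts methionine chain elongation, fell by 0.08 ± 0.02 (adjusted p = 0.0101). That mean called 25.5% of all probes. In FD, which called 5.85%, GSTU20 was at 0.42 ± 0.11 (adjusted p = 0.0148) and BCAT4 at -0.29 ± 0.09 (adjusted p = 0.0332), beside the call of CYP71B6 that was lost without any 1 array.

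In the phenylpropanoid and flavonoid list 6 of 56 genes were measured, on 9 probes. In the mean of the 13 lines, where 25.5% of all probes were called, 2 of these 9 were. HCT, an acyltransferase of lignin synthesis, rose by 0.11 ± 0.03 on 1 of its 2 probes (limma, adjusted p = 0.0154) and was 0.03 ± 0.04 on the other (adjusted p = 0.539). DFR, an anthocyanin enzyme, rose by 0.12 ± 0.04 (adjusted p = 0.0318). The members UGT72E2, UGT78D1 and UGT71D1 were not called. In the mean day length difference the same HCT probe was higher under 16 h by 0.28 ± 0.07 (adjusted p = 0.0113), beside 5.44% of all probes called, and the other was 0.13 ± 0.07 (adjusted p = 0.304). The only call of this list in a double mutant group was that of UGT72E2. In the hormone list, without gibberellin and brassinosteroid, 3 of 58 genes were measured, all of them members, of which UGT74D1 rose. In the gibberellin and brassinosteroid list UGT73C6 was the only measured gene of 35, and in the cutin, wax and sterol list UGT80A2, named SGT on the array, the only one of 50. It was -0.11 ± 0.05 (adjusted p = 0.0925). None of the 8 electron donors of P450 enzymes was measured.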

How the data were processed

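Arrays with 2 channels measured total RNA of Arabidopsis lines against a comparator. The authors deposited linear ratios of both channels after a spatial normalization (Wilson and others), per the labels' descriptions. The sources used here give no background correction, spot filter, dye, direction or signal over background, so the number of arrays limits the precision. The members, lists and tests were chosen with earlier results of these data known.

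The deposited ratios were taken to log2. A single model (limma 3.58.1 in R 4.3.3) with a mean for each of the 32 groups and a term for dye orientation was fitted to all arrays and probes. Both 16 h arrays of GI have 1 biological replicate number and entered as their mean, which left 63 columns, 30 residual and 5.17 prior degrees of freedom. Probes needed values on 48 arrays, which removed 0. Swapped arrays were taken as already turned, since the arrays of a group correlated positively in 22 of 32 groups once the mean of their orientation was removed. P-values are two-sided and adjusted by Benjamini-Hochberg over 13824 probes within each comparison. Probes were tested separately. The labels number biological replicates but do not say whether these came from separate plants, so p-values measure the spread between arrays.

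Names came from the platform's gene table, updated through RefSeq's TAIR10.1 gene table. All members are described. Other genes of the pathway lists are named where a probe was called, with all their probes, and UGT80A2 as the only measured gene of its list. The measured markers are all named. The fit was tested on simulated data. Alternatives were the dye term, scaling, quantile normalization, array weights, ratios of exactly 1 as missing, values on all arrays, probes averaged per gene, the sign of swapped arrays, arrays of a line alone, other lines as the comparator, a replicate block, and leaving out arrays. Leaving out whole lines was added after seeing the data.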

Additional observations from a re-analysis of the deposited data

Results flagged for a closer look

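Among the 4 arrays of each line other than GI, a member's highest or lowest array was set apart where its gap to the nearest of the others was a large part of the whole range (Dixon's 95% limit). This held for 14 of 221 sets, and chance gives about 1 in 20. GI was not tested, since it has 3 samples.

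CYP71B6 stood apart in 3 lines, each time upwards. It was 0.43 on the second 16 h array of FD beside 0.25 to 0.28 on the others, 0.50 on the first 8 h array of FLC20 beside 0.03 to 0.08, and 0.51 on the first 16 h array of FY beside -0.08 to 0.00. UGT74D1 was 0.50 on the second 16 h array of FE beside 0.17 on the 3 others, and 0.51 on the second 16 h array of FWA beside -0.04 to 0.00. UGT78D1 was 0.37 on the first 16 h array of FT beside -0.02 to 0.05, and 0.63 on the second 16 h array of SOC1 beside -0.12 to -0.06. UGT87A2 was 0.58 on the second 16 h array of FCA beside 0.03 to 0.09.

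CYP71B19 was 0.13 on the second 16 h array of FD beside -0.02 to 0.00, and -0.12 on the second 8 h array of FT beside 0.20 to 0.25. CYP71B28 was -0.17 on the second 16 h array of GAI beside -0.03 to 0.00. UGT73C6 was -0.37 on the first 8 h array of FPA beside 0.00 to 0.06. UGT85A2 was 0.22 on the first 16 h array of CO beside -0.04 to 0.00, and -0.32 on the second 16 h array of FWA beside -0.08 to -0.03.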

How the results depend on the processing

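Few arrays a group and small log2 ratios limit these results. The count of 5 members called in the mean of the 13 lines was 3 without the dye term and 3 with ratios of exactly 1 missing. Those called were UGT74D1, CYP71B6 and UGT88A1 in either setting. With ratios of exactly 1 missing, 13 of 17 probes could be tested, and UGT85A2 was not among them. With the sign of swapped arrays turned the count was 1, a UGT71D1 probe. The same count ran from 3 to 5 with single arrays left out, and was 3 without the line FCA, FHA, FPA, FY or SOC1. The member called in FD became 0 without the dye term, with arrays scaled, with quantile normalization, with ratios of exactly 1 missing, with swapped arrays turned, against the other lines and without any 1 array (range 0 to 0), and 2 with array weights or with arrays of FD alone. The member called in FCAVRN2 against FCA became 0 with arrays scaled, quantile normalization, array weights or swapped arrays turned, and 2 with probes averaged per gene, and ran from 0 to 1 without an array. Array weights gave 2 calls among the day length differences of the lines. The mean day length difference gave 1 call with array weights, 1 without the line FCA, FPA, GAI, FVE, GI or SOC1, and from 0 to 2 without single arrays. Leaving out an array gave from 0 to 1 calls in FPA and from 0 to 2 in GI. The cause was not tested for any of these. Residuals of same-numbered arrays of different groups had a median r of 0.0278 (450 pairs, from -0.654 to 0.544, 152 of them over 0.1). No other set of pairs was compared with these, so they cannot show whether the numbers pair the arrays. With the replicate block the mean day length difference called 1 member, UGT74D1, and the other counts stayed, at 1 in FD, 1 in FCAVRN2 against FCA and 5 in the mean of the 13 lines. None of the called member values turned its sign in the settings run for it. The signs of values that were not called, and of partner and marker genes, were not compared between settings. Swapped arrays turned, probes averaged per gene and arrays of a line alone were run for the counts only, so they are not among these settings. Arrays of GI alone leave no residual degrees of freedom, and that fit was not run.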
